A study of Mus musculus with 5 samples.

Results

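The BCL2 family of apoptosis regulators was followed as 10 genes chosen by name: the antiapoptotic members Bcl2, Bcl2l1 (BCL-XL), Mcl1 and Bcl2a1b (A1), the effectors Bax and Bak1, and the BH3-only members Bid, Bcl2l11 (BIM), Pmaip1 (NOXA) and Bbc3 (PUMA). The rule that lists them uses no measured value. All 10 were listed in each of the 5 gene matrices, among 33696 genes in the MC38 tumor matrices and 32285 genes in the tumor-draining lymph node (TDLN) matrices. Proteins of this family decide whether the outer mitochondrial membrane is breached. Antiapoptotic members hold the effectors and BH3-only proteins in check, BH3-only proteins relay stress signals, and BAX and BAK, once released, form the pores through which cytochrome c leaves. In lymphocytes BCL2 sustains resting cells, BIM limits the survival of cells deprived of cytokine, and MCL1 is needed at many stages; A1 is known mainly from hematopoietic cells.

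The series holds 5 reactions of droplet single-cell RNA sequencing that reads the 5′ end of each transcript and counts unique molecular identifiers (UMIs). Male C57BL/6J mice carried either subcutaneous MC38 colon carcinoma (2 reactions of tumor) or TRAMP-C2 prostate carcinoma (3 reactions of TDLN). Every animal received antibody on days 3, 6 and 9, either isotype control or checkpoint inhibition (CPI, anti-CTLA4 plus anti-PD-1), then vehicle or the JAK1 inhibitor ABT-317 at 20 mg/kg on day 12, and tissue was taken on day 15. The 4 groups were therefore isotype, isotype + ABT-317, CPI and CPI + ABT-317. Tumor cells were sorted into CD45+ and CD45- fractions and mixed at equal parts, TDLN cells were not sorted by CD45, and the aim was 60000 cells per reaction. The deposited key gives 1 hashtag antibody per group in each reaction, so single mice of a group could not be told apart and reactions are the only replicates. Whether the reactions hold the same mice is not given in the sources used here. The p-values below rest on the spread between reactions that is left once the differences shared within a reaction are removed. This spread may be technical, and single mice do not enter it as units.

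The tumor reactions held 435031691 and 377184807 gene UMIs, and 33762 and 23332 barcodes passed a minimum of 200 genes and a limit of 10% mitochondrial UMIs. The TDLN reactions held 127052825, 105259770 and 18055617 UMIs in 62571, 56509 and 7050 such barcodes. Tumor barcodes were placed in classes by marker genes that included no BCL2 family gene. In the TDLN, T and B lineage came first from a mixture fit started from marker lists, and marker gates then divided the T cells. The fit used all genes except the 10 members, a list of 29 pathway genes and the mitochondrial genes. A class is called X-like because the deposited files gave no cell labels. In the tumors 17474 and 15105 barcodes entered a class. In the TDLN most barcodes (61712, 54185 and 7005) were left as mixed. The fit did not place these with T or B cell RNA alone, or they met no gate. The mixed label did not require UMIs of both lineages in a barcode, and no myeloid class was set in the TDLN. The TDLN classes thus rest on 859, 2324 and 45 barcodes. The antibody rows, hashtags included, were all 0, so the TDLN could not be divided by treatment. The tumor reactions shared 1416 barcode sequences, 5.13% of the smaller set, and the TDLN pairs shared 576 to 4842. A tumor class termed marker-negative (10174 and 8219 barcodes) had at least 3000 UMIs, no UMI of Ptprc, of a T cell marker or of Cdh5, Kdr, Emcn and Rgs5, and C1q and type I collagen UMIs under a low limit. Other markers were not at 0 in it: the fibroblast list summed to 1557.3 and 1671.6 and the monocyte list to 176.0 and 153.3 UMIs per 1000000 UMIs of the class (CPM). It was given no cell type name, because a keratin-positive gate found only 1 and 2 barcodes. Classes were not free of each other's markers: the 8 macrophage markers summed to 24281 and 27945.9 CPM in macrophage-like barcodes and still to 1149.1 and 1379.1 CPM in CD8 T-like barcodes, with all 8 seen. In fibroblast-like barcodes that sum was 657.2 and 637.6 CPM, and in marker-negative barcodes 86.5 and 42.6 CPM. The 7 T cell markers summed to 2141.1 and 2890.9 CPM in CD8 T-like barcodes and to 4.1 and 4.4 CPM in macrophage-like barcodes. The gates held this sum to a low limit in macrophage-like barcodes and to 0 in fibroblast-like and marker-negative barcodes, and capped the C1q genes in the latter pair, so these values do not measure stray RNA there. Doublets were not called, and 31.4% and 16.1% of T-like barcodes carried several hashtags. The source of one class's markers in another was not tested. A level below is the CPM of 1 class summed in 1 reaction. Because each UMI stands for 1 captured 5′ end, levels carry no gene length term. Members are set side by side as captured UMIs, and whether capture differs between genes was not tested.

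The promoters of 3 members are printed because their genes set the pattern across tumor classes: Bcl2a1b spanned the widest range of the antiapoptotic members, Mcl1 led the antiapoptotic transcripts of stromal barcodes, and Bcl2l11 was the BH3-only gene with the highest levels. Each line gives 250 bases before and 50 bases after a RefSeq transcript start on GRCm38.p6, 5′ to 3′, with capitals for an NF-kB motif on either strand, searched as GGGA, then any 4 bases, then CC.
Bcl2a1b, chr9:89199023-89199322, plus strand: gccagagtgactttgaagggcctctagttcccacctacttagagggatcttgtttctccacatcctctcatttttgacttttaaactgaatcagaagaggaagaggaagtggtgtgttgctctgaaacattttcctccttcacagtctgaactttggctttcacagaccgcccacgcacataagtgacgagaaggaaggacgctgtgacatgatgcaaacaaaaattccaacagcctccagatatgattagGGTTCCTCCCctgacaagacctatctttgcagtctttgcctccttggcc
Mcl1, chr3:95658471-95658770, plus strand: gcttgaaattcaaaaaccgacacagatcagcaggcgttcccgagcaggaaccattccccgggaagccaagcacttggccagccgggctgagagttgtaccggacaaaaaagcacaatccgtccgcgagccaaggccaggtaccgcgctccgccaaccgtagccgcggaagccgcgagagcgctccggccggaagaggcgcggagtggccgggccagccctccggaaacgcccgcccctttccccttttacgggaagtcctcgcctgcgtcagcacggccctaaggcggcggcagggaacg
Bcl2l11, downstream start, chr2:128127325-128127624, plus strand: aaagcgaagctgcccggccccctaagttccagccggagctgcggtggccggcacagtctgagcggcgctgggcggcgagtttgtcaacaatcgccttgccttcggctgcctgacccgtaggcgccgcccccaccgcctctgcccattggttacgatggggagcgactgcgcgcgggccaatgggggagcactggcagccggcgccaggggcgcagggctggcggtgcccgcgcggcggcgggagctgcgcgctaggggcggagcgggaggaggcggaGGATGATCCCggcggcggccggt
RefSeq promoters of 9 members (14 promoters in all) were searched, and Pmaip1 was not among them. The NF-kB letters began 1 base after the start in Bcl2a1b and 27 bases after the downstream start in Bcl2l11. The window of the other Bcl2l11 start held none. The letters also occurred in Bak1 and in 1 promoter of Bbc3. They were absent from the Mcl1 window. Of 32851 mouse promoters of this length, 6810 (20.73%) held them, so their presence describes these windows only. The letters TTCNNNGAA, a spelling of the STAT-binding GAS element, occurred in none of the 14 windows searched and in 8.298% of all.

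Among antiapoptotic genes in the MC38 tumors, Mcl1 and Bcl2a1b carried the most UMIs in most leukocyte classes, whereas Mcl1 alone led in stromal and marker-negative barcodes. Mcl1 (chr3:95658788-95663176, GRCm38), whose product is a short-lived inhibitor of BAK, reached 1064 and 1160 CPM in monocyte-like barcodes and 624.8 and 709.1 CPM in macrophage-like barcodes. It stood at 262.4 and 349.6 CPM in CD8 T-like, 168.6 and 172.3 CPM in fibroblast-like and 98.9 and 102.6 CPM in marker-negative barcodes. Among the 10 classes with at least 20 barcodes in both reactions, the order of mean Mcl1 ran from monocyte-like through macrophage-like and cDC2-like (446.7 CPM) to the T-like classes. The CD8 T-like, other T-like, Treg-like and endothelial-like values overlapped with their neighbours in this order, as did those of pericyte-like and fibroblast-like barcodes. The highest class mean was 11.04 times the lowest.

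Bcl2a1b (chr9:89199209-89207827), a gene of the A1 cluster, had the wider range. Its level was 644 and 745 CPM in macrophage-like, 761.5 and 518.1 CPM in monocyte-like and, in reaction 1, 702.8 CPM in mature dendritic cell (DC)-like barcodes. CD8 T-like barcodes had 163 and 231.5 CPM, fibroblast-like 17.2 and 13.4 CPM and marker-negative 2.87 and 1.40 CPM. The macrophage-like and monocyte-like values overlapped. Neighbours in the order from Treg-like through cDC2-like and CD8 T-like to other T-like barcodes overlapped, at means of 245.4 down to 181.6 CPM, although other T-like values lay below those of Treg-like and cDC2-like barcodes, and the stromal classes lay at means of 15.3 to 22.97 CPM. The highest class mean was 325 times the lowest. Because Bcl2a1a and Bcl2a1d are near-identical copies, reads could be split among them: macrophage-like barcodes had 73.0 and 77.8 CPM of Bcl2a1a and 99.4 and 103.4 CPM of Bcl2a1d. The macrophage marker sums given above for CD8 T-like barcodes stand beside their Bcl2a1b level, and their part in it was not tested.

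Bcl2l1 and Bcl2 were lower and were spread differently over the classes. Bcl2l1 (chr2:152780668-152831728), which encodes BCL-XL, was highest in Treg-like barcodes at 159.8 CPM (14 UMIs, exact Poisson 95% interval 87.4 to 268) and 168.6 CPM (16 UMIs, 96.4 to 274), intervals that cover counting error only. Macrophage-like barcodes followed at 75.8 and 63.2 CPM, CD8 T-like at 43.7 and 55.5 CPM, and fibroblast-like and marker-negative barcodes lay between 13.2 and 14.6 CPM. The Treg-like values did not overlap those of the next class in this order. The tumor Treg-like gate took T cell barcodes with Foxp3, or with Cd4 and more than 1 of Il2ra, Ctla4, Ikzf2, Tnfrsf18 and Tnfrsf4. It thus did not require Foxp3, and whether the class holds only regulatory T cells was not tested. Bcl2 (chr1:106538178-106714274) was at 43.7 and 50.6 CPM in CD8 T-like barcodes and 29.6 and 29.4 CPM in macrophage-like barcodes. It stood at 7.79 and 4.41 CPM in fibroblast-like and 4.74 and 3.82 CPM in marker-negative barcodes, and Treg-like barcodes held 1 Bcl2 UMI in each reaction. Neighbours in the Bcl2 order overlapped from CD8 T-like down to macrophage-like barcodes.

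**Figure D1:**
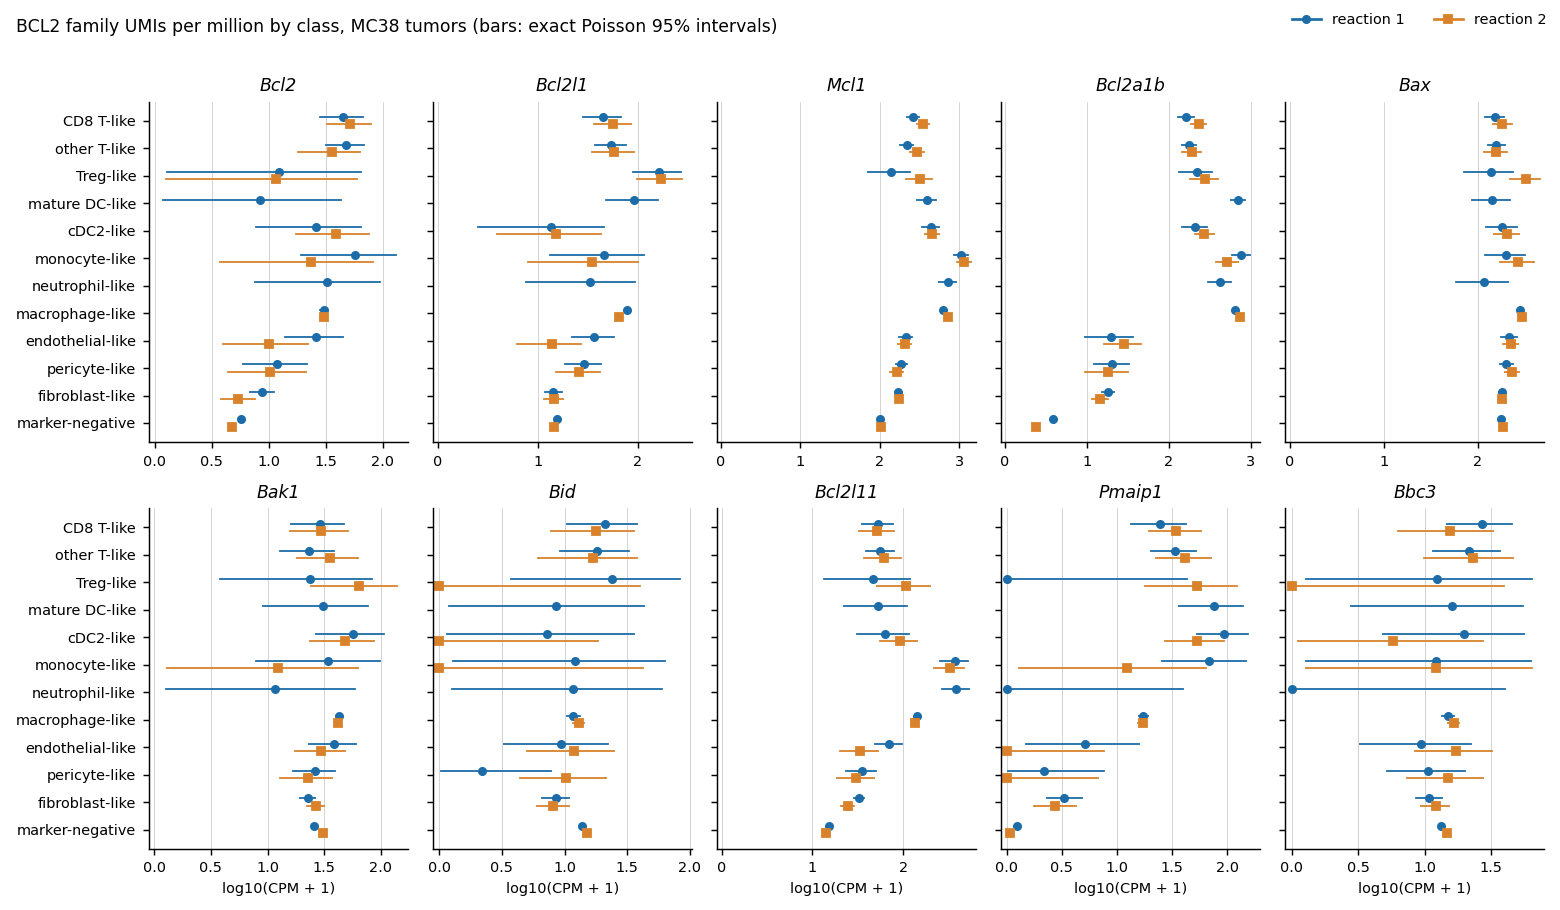
Levels of the 10 BCL2 family genes in MC38 tumor classes, as log10(CPM + 1), with 1 point per reaction for each class of at least 20 barcodes and bars for exact Poisson 95% intervals. Among classes with points from both reactions, Mcl1 and Bcl2a1b lie highest in the monocyte-like and macrophage-like classes. With reaction 1 alone, Mcl1 was at 709.4 CPM in neutrophil-like barcodes and Bcl2a1b at 702.8 CPM in mature DC-like barcodes. Bcl2a1b spans the widest range of the antiapoptotic genes, down to 1.40 CPM in marker-negative barcodes.

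The make-up of the antiapoptotic transcripts differed between classes. Of all UMIs from Bcl2, Bcl2l1, Mcl1 and Bcl2a1b, Mcl1 made up 45.5% and 45.8% in macrophage-like barcodes, where Bcl2a1b made up 46.9% and 48.2%. The copies Bcl2a1a and Bcl2a1d, whose macrophage-like levels are given above, were not counted, so no share stands for all A1 transcripts. In fibroblast-like barcodes Mcl1 made up 81.5% and 84.7%, and in marker-negative barcodes 81.6% and 84.5%. In CD8 T-like barcodes Mcl1 took 51.2% and 50.9%, Bcl2a1b 31.8% and 33.7%, and Bcl2 8.53% and 7.37%. Treg-like barcodes gave Bcl2l1 a share of 30.4% (exact binomial 95% interval 17.7 to 45.8) and 21.9% (13.1 to 33.1). In mature DC-like barcodes of reaction 1, Bcl2a1b made up 59.1% (51.1 to 66.8). Bcl2 was a minor transcript in all of these tumor classes, while in the TDLN classes it was a major one, as described further on; the tissues came from different tumor models and reactions and were not tested against each other.

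**Figure D2:**
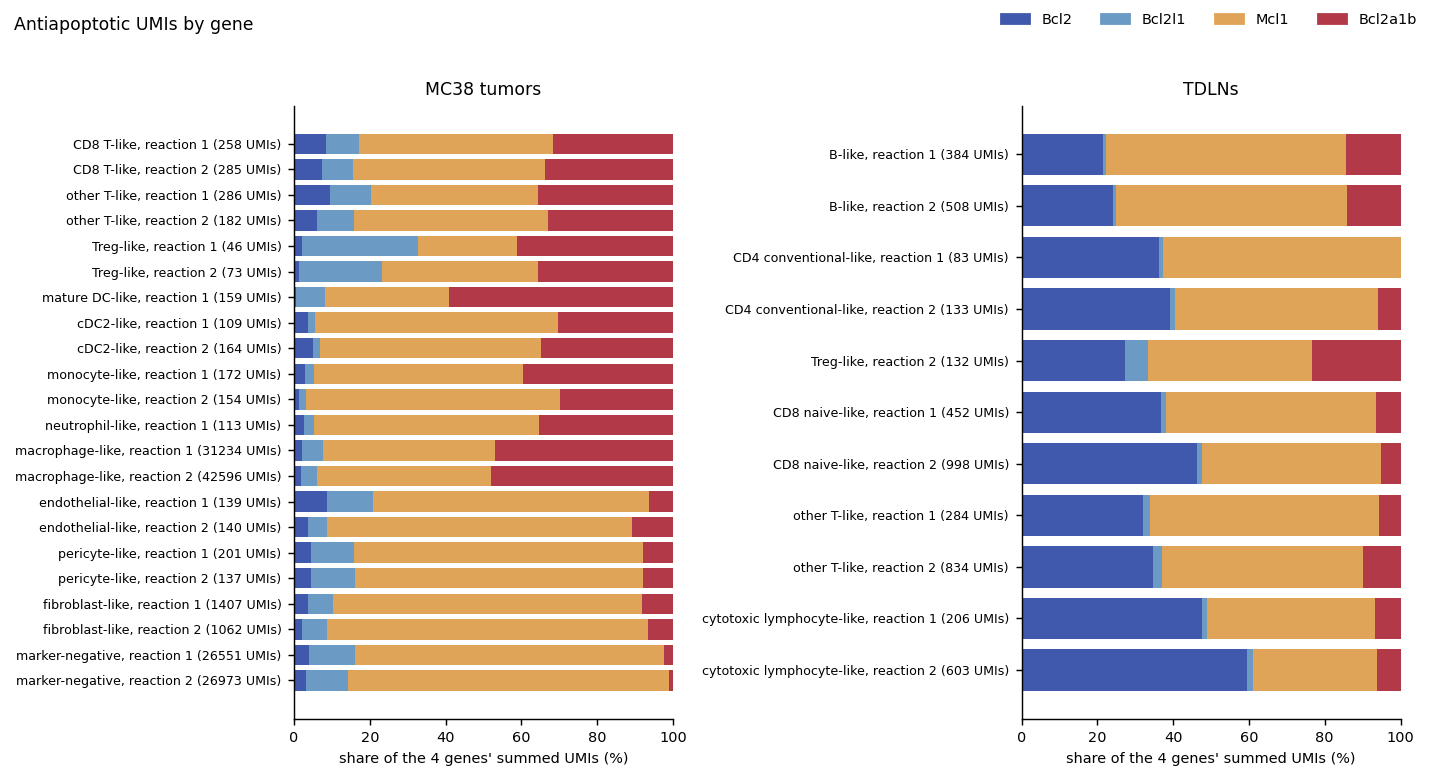
Share of the UMIs of 4 antiapoptotic genes held by each gene (percent), by class and reaction for sums of at least 20 barcodes, in MC38 tumors and TDLN. Bcl2a1a and Bcl2a1d are not counted. Mcl1 holds 81.5% to 84.7% in fibroblast-like and marker-negative barcodes, Bcl2a1b and Mcl1 hold near-equal shares in macrophage-like barcodes, and Bcl2 holds its largest shares in lymphocytes of the TDLN.

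By the ratio of the highest to the lowest class mean, the effectors varied least. Bax (chr7:45461697-45466898), whose product forms the pores, was at 280.4 and 297.8 CPM in macrophage-like barcodes, 151.1 and 183.2 CPM in CD8 T-like, 179.9 and 181.1 CPM in fibroblast-like and 178 and 186 CPM in marker-negative barcodes. Its highest class mean was 1.84 times its lowest, the smallest such ratio of the 10 members in the tumors. Bak1 (chr17:27019810-27029009) was lower than Bax in each of these classes, at 41.9 and 40.7 CPM in macrophage-like and 24.8 and 29.9 CPM in marker-negative barcodes, and its class means spanned a ratio of 2.31. Mature DC-like and neutrophil-like barcodes, left out of these ratios, had 142.1 and 116.5 CPM of Bax in reaction 1.

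The BH3-only genes Bcl2l11 and Pmaip1 ranged more widely. The ratios of Bid (5.88) and Bbc3 (3.73) rest on a lowest class with 1 UMI, so they do not place these genes above the effectors. Bcl2l11 (chr2:128126038-128162547) reached 369.5 and 326.6 CPM in monocyte-like barcodes and 140.2 and 133.5 CPM in macrophage-like barcodes. The level was 51.7 and 50.6 CPM in CD8 T-like, 31.7 and 23.4 CPM in fibroblast-like and 14.3 and 13.2 CPM in marker-negative barcodes, so the monocyte-like and macrophage-like values lay above every class below them in the order. Neutrophil-like barcodes, left out of that order because reaction 2 had 15 of them, had 381.1 and 486.5 CPM. Pmaip1, whose product binds MCL1 and A1, was at 93.7 and 52.2 CPM in cDC2-like, 23.9 and 33.8 CPM in CD8 T-like, 16.5 and 16.1 CPM in macrophage-like and 2.35 and 1.73 CPM in fibroblast-like barcodes. In marker-negative barcodes Pmaip1 was at 0.246 CPM (54 UMIs) and 0.081 CPM (18 UMIs), the lowest level of any member in that class. Neutrophil-like barcodes had no UMI of Pmaip1 or Bbc3, which, at a limit of 3 counts, allows up to 31.8 CPM of each in reaction 1. Bid (chr6:120891930-120916853), cleaved by caspase-8 to join death receptors to mitochondria, was between 10.8 and 19.9 CPM in CD8 T-like, macrophage-like and marker-negative barcodes. Bbc3 (chr7:16308393-16318205), a target of p53, was between 9.85 and 25.8 CPM in those classes and in fibroblast-like barcodes.

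Fibroblast-like barcodes were compared with macrophage-like barcodes to set the stromal against the myeloid fraction. All 10 members were lower in fibroblast-like barcodes, where 66% of the 11117 genes tested differed and 27.3% were lower. Bcl2a1b differed most (log2 fold change −5.42 ± 0.27 SE, adjusted p = 1.35e-16), and among the other antiapoptotic genes the values were −2.30 ± 0.14 for Bcl2l1 (adjusted p = 2.16e-14), −2.17 ± 0.19 for Bcl2 and −1.88 ± 0.17 for Mcl1. The effectors moved less, with Bax at −0.59 ± 0.15 (adjusted p = 0.00143) and Bak1 at −0.72 ± 0.13. Of the BH3-only genes, Pmaip1 stood at −2.91 ± 0.34, Bcl2l11 at −2.22 ± 0.13 (adjusted p = 4.65e-15), Bid at −0.55 ± 0.20 and Bbc3 at −0.41 ± 0.17 (adjusted p = 0.0343). Without the reaction as a block Bid (adjusted p = 0.0569) and Bbc3 (0.0997) did not pass, nor did Bbc3 with relative log expression size factors (0.0556). The median over members was −2.02, beside 0.12 over all genes. The classes differed in their treatment make-up: 56.6% and 68.3% of fibroblast-like barcodes carried the CPI hashtag alone, while 59.6% and 64.9% of macrophage-like barcodes carried the isotype hashtag alone. Within barcodes of the CPI hashtag, Mcl1 (−2.25), Bcl2a1b (−5.19) and Bcl2l11 (−2.52) were still lower, and Bcl2 (−0.77, adjusted p = 0.469), Bcl2l1 (−0.86, adjusted p = 0.269), Bax (−0.24, adjusted p = 0.448) and Pmaip1 (−2.13, adjusted p = 0.157) did not pass the threshold, while Bak1, Bid and Bbc3 were not tested.

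CD8 T-like barcodes had lower levels than macrophage-like barcodes for 6 of the 10 members, where 31.6% of all genes differed and 14.3% were lower. The genes were Bcl2a1b (log2 fold change −2.05 ± 0.25, adjusted p = 1.59e-07), Bcl2l11 (−1.65 ± 0.22, adjusted p = 6.13e-07), Mcl1 (−1.35 ± 0.18, adjusted p = 9.22e-07), Bax (−1.02 ± 0.18), Bak1 (−0.76 ± 0.29, adjusted p = 0.0438) and Bcl2l1 (−0.73 ± 0.23, adjusted p = 0.0145). Bcl2 (0.43 ± 0.27, adjusted p = 0.249), Pmaip1 (0.56 ± 0.45), Bid (0.48 ± 0.42) and Bbc3 (0.27 ± 0.36) did not pass. Bak1 was not called with stricter classes (adjusted p = 0.345), below 2500 genes (0.219) or without the reaction as a block (0.0669), and Bcl2 passed below 2500 genes (0.81, adjusted p = 0.0211). For Bcl2l1 the log2 ratio of CPM without TMM scaling was −0.79 in reaction 1 and −0.19 in reaction 2. The CPI hashtag alone was carried by 62.1% and 71.6% of all T-like barcodes, CD8 T-like included, and by 1.47% and 1.39% of macrophage-like barcodes. Within the CPI hashtag the sign of Bcl2l1 turned (1.25 ± 0.59, adjusted p = 0.131) and Bcl2 became higher in CD8 T-like barcodes (2.15 ± 0.69, adjusted p = 0.0191), while Bcl2a1b (−1.05), Mcl1 (−1.81), Bcl2l11 (−2.07) and Bax (−1.46) stayed lower, and Bak1 was not tested.

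Marker-negative barcodes, set against fibroblast-like barcodes because the keratin-positive gate found too few barcodes, had less Pmaip1 (−3.56 ± 0.60, adjusted p = 7.35e-06), Bcl2a1b (−2.80 ± 0.27, adjusted p = 3e-10), Bcl2l11 (−0.96 ± 0.13), Mcl1 (−0.71 ± 0.16, adjusted p = 0.000391) and Bcl2 (−0.49 ± 0.22, adjusted p = 0.0441). Bid was higher (0.92 ± 0.19, adjusted p = 0.000105). Bax (0.06), Bak1 (0.26), Bcl2l1 (0.14) and Bbc3 (0.36) did not pass, and 69.7% of all genes differed. The log2 ratio of unscaled CPM for Pmaip1 was −3.25 in reaction 1 and −4.41 in reaction 2. Of marker-negative barcodes 0.560% and 0.353% carried the CPI hashtag alone, against the shares of fibroblast-like barcodes given above. Within the CPI hashtag Pmaip1 (−3.77), Bcl2a1b (−2.06), Bcl2l11 (−1.23) and Mcl1 (−0.86) were still lower, Bcl2 was at −1.12 (adjusted p = 0.0944), and Bid was not tested. The macrophage marker sum was higher in the fibroblast-like class, as given above, and its part in the Bcl2a1b difference was not tested. Among barcodes with fewer than 2500 genes, which kept 6.16% and 3.13% of the marker-negative class, Bax turned to −0.71 and Pmaip1 (−1.41, adjusted p = 0.0974), Bcl2a1b (−0.64, adjusted p = 0.0549), Bcl2l11 (adjusted p = 0.989) and Bcl2 (−0.38, adjusted p = 0.374) did not pass. Without the reaction as a block Bcl2 did not pass (adjusted p = 0.0865).

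The BH3-only gene Bcl2l11 differed between macrophage-like barcodes and both monocyte-like and neutrophil-like barcodes. It was higher in monocyte-like than in macrophage-like barcodes (1.22 ± 0.24, adjusted p = 0.00358), the only member of 10 past the threshold where 1.87% of all genes differed, and Mcl1 was at 0.62 ± 0.19 (adjusted p = 0.107, and 1.88e-05 with DESeq2). It was also higher in neutrophil-like barcodes (1.12 ± 0.31, adjusted p = 0.0294), where Bax was lower (−1.52 ± 0.40, adjusted p = 0.0195) and 5.27% of all genes differed. Only reaction 1 gave a neutrophil-like sum of at least 20 barcodes, so that sum was taken to vary like those of the other classes. The median over all genes was −0.39 and −0.41 in these comparisons, under which a value of 0 is not the centre. Monocyte-like barcodes held 2900.3 and 3739.2 CPM of monocyte markers and more, 9417.7 and 7771.2 CPM, of macrophage markers, whose part in these differences was not tested. With stricter classes neither Bcl2l11 call held (adjusted p = 0.06 for monocyte-like and 0.151 for neutrophil-like), nor did the latter without the filter on low counts (0.0576), and Bax in neutrophil-like barcodes was not called below 2500 genes (0.128).

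No member passed the threshold between Treg-like and CD8 T-like barcodes or between mature DC-like and cDC2-like barcodes with edgeR, in comparisons where 0.621% and 0.792% of all genes did. At an unadjusted p under 0.05 there were 3 members in the first (Bcl2l1, Bcl2 and Mcl1) and 2 in the second (Bcl2l1 and Bcl2a1b), beside 9.61% and 9% of all genes. DESeq2 called 1 (Bcl2l1) and 2 (Bcl2l1 and Bcl2a1b), beside 1.36% and 2.29%. Bcl2l1 was higher by 1.52 ± 0.38 in Treg-like barcodes (adjusted p = 0.0554) and Bcl2a1b by 1.5 ± 0.37 in mature DC-like barcodes (adjusted p = 0.0518), where reaction 2 had 14 barcodes and the sum of reaction 1 was taken to vary like the others. Both lay just outside the threshold and crossed it under several other settings.

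**Figure D3:**
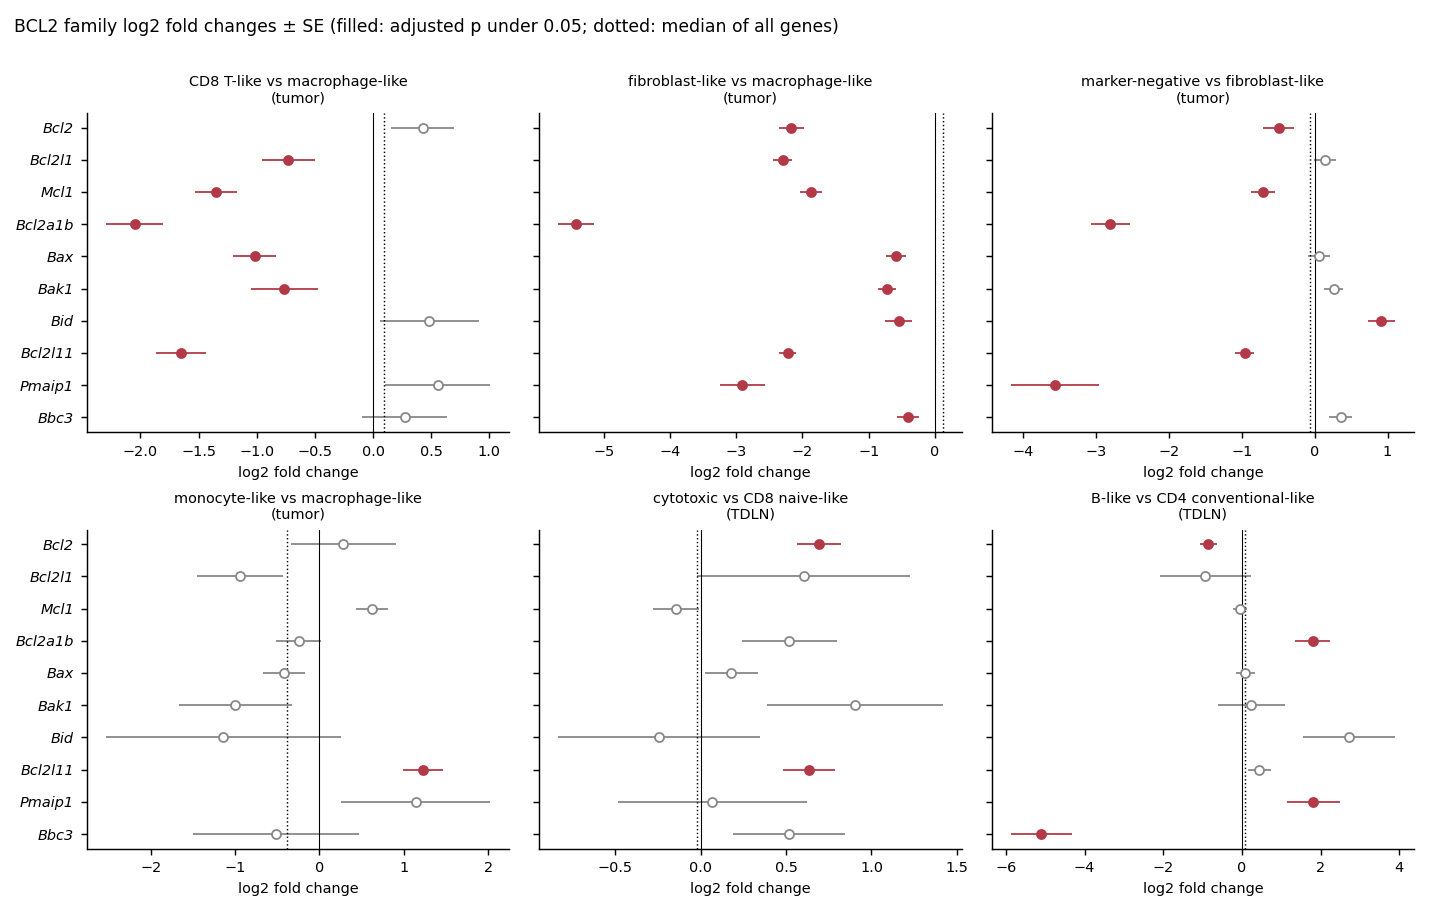
Log2 fold change with SE (edgeR) of the 10 members in 6 class comparisons, with filled points for an adjusted p under 0.05 and a dotted line at the median of all genes. All members lie below 0 in fibroblast-like against macrophage-like barcodes, from −0.41 for Bbc3 to −5.42 for Bcl2a1b.

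In the TDLN, Bcl2 was a leading antiapoptotic transcript beside Mcl1. It was at 349 and 411.2 CPM in cytotoxic lymphocyte-like barcodes (reactions 1 and 2), 262.4 and 224.6 CPM in CD4 conventional-like, 219.3 and 240.7 CPM in CD8 naive-like and 133.5 and 131.5 CPM in B-like barcodes. The B-like values were below and the cytotoxic values above all others. Bcl2 made up 47.6% (exact binomial 95% interval 40.6 to 54.6) and 59.5% (55.5 to 63.5) of antiapoptotic UMIs in cytotoxic lymphocyte-like barcodes. Its share was 36.7% and 46.4% in CD8 naive-like and 21.6% and 24.2% in B-like barcodes, where Mcl1 took 63.3% and 60.8%. Mcl1 was at 454.8 and 306.6 CPM in CD4 conventional-like, 331.6 and 244.3 CPM in CD8 naive-like, 324.1 and 224.5 CPM in cytotoxic lymphocyte-like and 390.9 and 330.3 CPM in B-like barcodes. It was lower in reaction 2 in each of these classes. Bax was between 116.6 and 178.7 CPM in the classes with sums from both reactions, with class means within a ratio of 1.09. TDLN reaction 3 gave no class of 20 barcodes, and its mixed barcodes had 202.1 CPM of Bcl2 and 307.3 CPM of Mcl1.

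**Figure D4:**
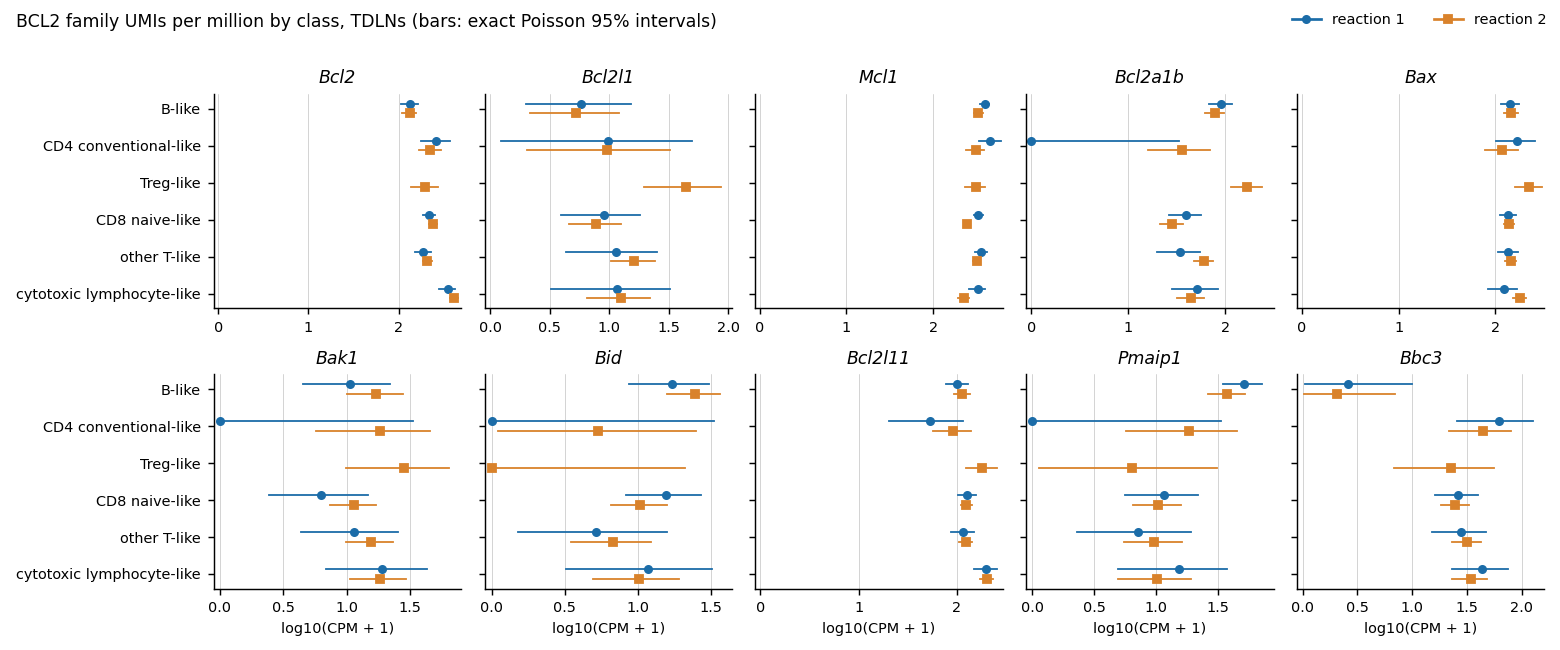
Levels of the 10 BCL2 family genes in TDLN classes, as log10(CPM + 1), with 1 point per reaction for each class of at least 20 barcodes and bars for exact Poisson 95% intervals. Bcl2 lies highest in cytotoxic lymphocyte-like barcodes (349 and 411.2 CPM), and Bbc3 lies near 1 CPM in B-like barcodes against 23.9 to 61.2 CPM in CD8 naive-like, CD4 conventional-like and cytotoxic lymphocyte-like barcodes.

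Cytotoxic lymphocyte-like barcodes had more Bcl2 than CD8 naive-like barcodes (0.69 ± 0.13, adjusted p = 1.12e-05), and also more Bcl2l11 (0.63 ± 0.15, adjusted p = 0.00272), so an antiapoptotic gene and a BH3-only gene were higher together. Their Bcl2l11 levels were 195.9 and 200.5 CPM, against 125.5 and 123.2 CPM. Of all genes 2.04% differed. Monocyte markers summed to 1104.0 and 1183.3 CPM in the cytotoxic class and 414.8 and 521.4 CPM in the naive class. In the cytotoxic class Chil3 was at 0 in both reactions and Vcan and F13a1 in reaction 1, and the macrophage markers summed to 10.7 and 13.7 CPM, against 14.5 and 18.7 CPM in the naive class. The part of the monocyte list in the differences was not tested. Without the reaction as a block, neither call held (adjusted p = 0.127 for Bcl2 and 0.39 for Bcl2l11), and DESeq2 kept only Bcl2 (Bcl2l11 adjusted p = 0.53).

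B-like barcodes, set against CD4 conventional-like barcodes, had less Bbc3 (−5.10 ± 0.78, adjusted p = 1.22e-09) and less Bcl2 (−0.85 ± 0.21, adjusted p = 0.0006), and more Bcl2a1b (1.80 ± 0.45, adjusted p = 0.000521) and Pmaip1 (1.81 ± 0.67, adjusted p = 0.0339), in a comparison where 22.3% of all genes differed. The members and the pathway list were held out of the lineage fit behind these classes, while nearly all other genes entered it. The share over all genes is therefore not a like background for them. Bbc3 had 1 UMI in each reaction in B-like barcodes (1.61 CPM, exact Poisson 95% interval 0.0407 to 8.96, and 1.07 CPM, 0.0271 to 5.96). CD4 conventional-like barcodes had 7 and 10 UMIs (61.2 and 43.2 CPM). The intervals did not overlap in either reaction, and the mixed barcodes lay between, at 20.5, 21.6 and 22.5 CPM. B-like barcodes had 88.5 and 77.0 CPM of Bcl2a1b and 49.9 and 36.3 CPM of Pmaip1. CD4 conventional-like barcodes had no UMI of either gene in reaction 1, and the log2 ratios of unscaled CPM in reaction 2 were 1.16 and 1.07, and DESeq2 did not keep these 2 calls (adjusted p = 0.0547 and 0.235), nor was Pmaip1 called without the reaction as a block (0.0604). In B-like barcodes macrophage markers summed to 241.3 and 276.9 CPM (5 and 7 of 8 seen) and monocyte markers to 381.2 and 290.7 CPM (4 and 3 of 6 seen), against 17.5 and 21.6 CPM and 8.7 and 25.9 CPM in CD4 conventional-like barcodes, and their part in these differences was not tested. The TDLN Treg-like gate took T cell barcodes with Foxp3, or with more than 1 of Il2ra, Ctla4, Ikzf2, Tnfrsf18 and Tnfrsf4. It did not require Foxp3, and CD4 conventional-like barcodes were those with Cd4 that failed this rule. Whether the Treg-like class holds only regulatory T cells was not tested. Treg-like barcodes had more Bcl2a1b than CD4 conventional-like barcodes (2.79 ± 0.52, adjusted p = 1.92e-05, 1.5% of all genes called), with 31 UMIs (167.9 CPM) in the single Treg-like sum used, that of reaction 2, against 0 and 8 UMIs. That sum was taken to vary like the others, and DESeq2 gave the gene no adjusted p. Without the reaction as a block its adjusted p was 0.0687.

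Groups set by hashtag call could be compared in macrophage-like and marker-negative barcodes, and a group name below means the hashtag called. The calls were uneven over classes: the CPI hashtag alone marked 62.1% and 71.6% of T-like but 1.47% and 1.39% of macrophage-like barcodes. The paper's methods describe equal hashtag representation in each reaction. Whether the calls give the treatment a cell received was not tested. Macrophage-like barcodes with the CPI hashtag alone numbered 76 and 74, against 3089 and 3458 for isotype, 202 and 288 for CPI + ABT-317, and 235 and 199 for isotype + ABT-317. These numbers rest on hashtag calls whose separation was weakest for the CPI hashtag, as given with the processing below. Bcl2a1b was at 696.8 and 804.6 CPM under isotype, 410.4 and 468.2 CPM under CPI, 645.7 and 760.5 CPM under CPI + ABT-317 and 566.3 and 688.5 CPM under isotype + ABT-317. The CPI values lay below all others. Mcl1 was at 633.6 and 734.6 CPM under isotype, 944.4 and 893.3 CPM under CPI, 739.8 and 726.5 CPM under CPI + ABT-317 and 524.5 and 621.2 CPM under isotype + ABT-317. Here the CPI values lay above all others. The share of all genes with CPI values outside those of every other group was not computed. Bcl2l1 had only 7 and 2 UMIs under CPI (39.4 CPM, exact Poisson 95% interval 15.8 to 81.1, and 10.8 CPM, 1.30 to 38.9), against 79.5 and 66.5 CPM under isotype and 86.8 and 65.8 CPM under CPI + ABT-317.

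**Figure D5:**
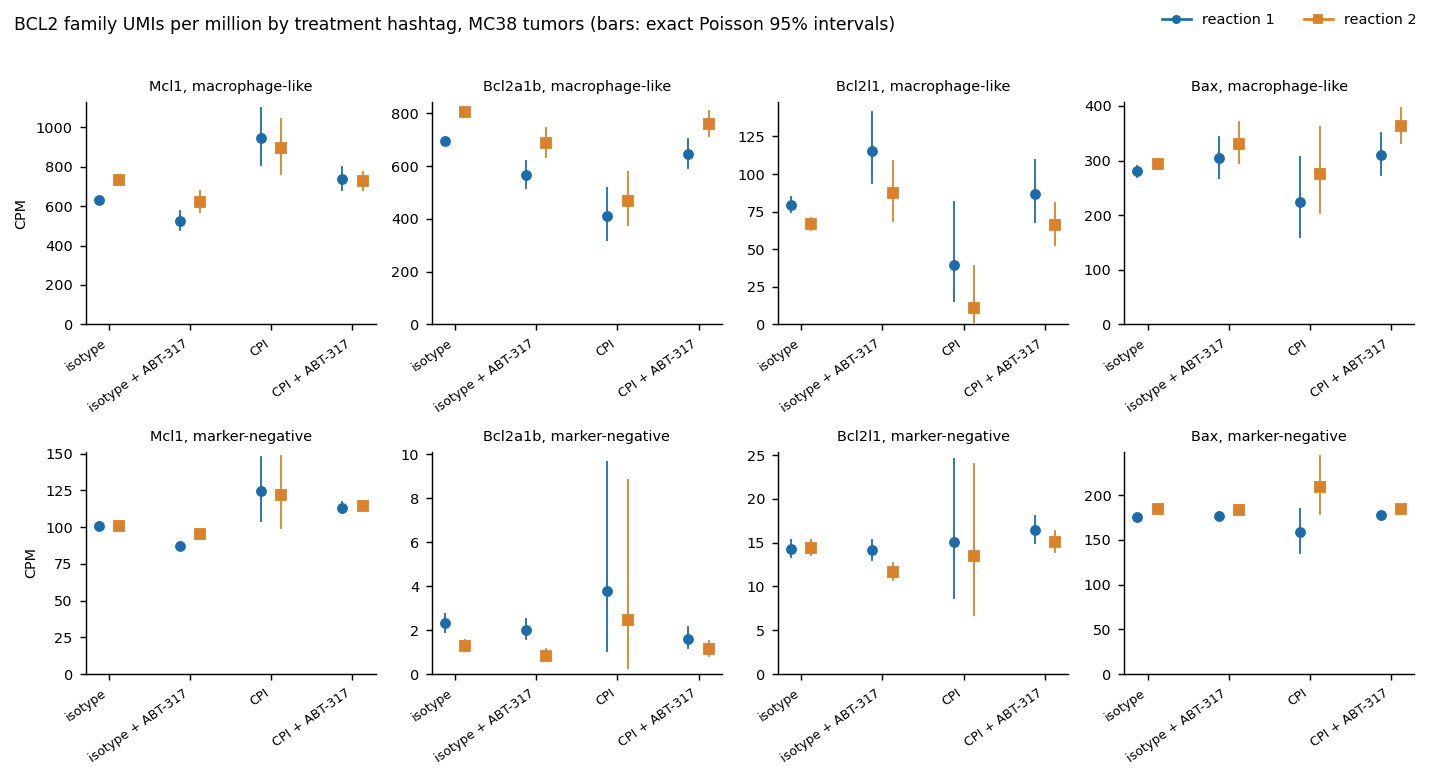
Levels of Mcl1, Bcl2a1b, Bcl2l1 and Bax (CPM) in macrophage-like and marker-negative barcodes of MC38 tumors by treatment hashtag, with 1 point per reaction and bars for exact Poisson 95% intervals. In macrophage-like barcodes the CPI points for Bcl2a1b (410.4 and 468.2 CPM) lie below, and those for Mcl1 (944.4 and 893.3 CPM) above, the other groups.

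Under CPI, macrophage-like barcodes had less Bcl2a1b than under isotype (−0.78 ± 0.12, adjusted p = 3.23e-07), less Bcl2l1 (−1.57 ± 0.41, adjusted p = 0.00275) and more Mcl1 (0.42 ± 0.10, adjusted p = 0.0018), 3 of 10 members where 19.2% of all genes differed. The difference between CPI + ABT-317 and CPI had the opposite sign for each: 0.67 ± 0.12 for Bcl2a1b (adjusted p = 4.01e-05), 1.60 ± 0.43 for Bcl2l1 (adjusted p = 0.00497) and −0.34 ± 0.11 for Mcl1 (adjusted p = 0.0235), with 14.5% of all genes called. Both comparisons use the same CPI sums, so an opposite sign is no second observation. The log2 ratios of unscaled CPM for Bcl2l1 were −1.01 and 1.14 in reaction 1 and −2.63 and 2.61 in reaction 2. With barcodes assigned by their leading hashtag, Bcl2a1b and Mcl1 were still called and Bcl2l1 was not (−0.59, adjusted p = 0.183, and 0.64, adjusted p = 0.19). Mcl1 lost both calls without the reaction as a block (adjusted p = 0.0973 and 0.234), without the filter on low counts (0.16 and 0.404) and with stricter classes (0.0505 and 0.154), and the second also with DESeq2 (0.156) and below 2500 genes (0.0622). Monocyte markers summed to 494.7 and 462.8 CPM under CPI and to 143.1 and 130.6 CPM under isotype in these barcodes, and macrophage markers to 27450.6 and 30166.4 CPM and 25451.1 and 29829.7 CPM. Cycling markers summed to 314.8 and 199.1 CPM under CPI and to 735.3 and 696.6 CPM under isotype, and Malat1 took 0.797% and 0.694% of UMIs against 0.4997% and 0.4668%. Median depth was 2210 and 2158 UMIs under CPI and 3298 and 3870 under isotype. Under CPI + ABT-317 the monocyte markers summed to 112.5 and 108.9 CPM, the macrophage markers to 20346.3 and 25899.2 CPM and the cycling markers to 814.4 and 640.2 CPM, Malat1 took 0.575% and 0.504% and median depth was 3669 and 4658.5 UMIs. The part of these in the differences was not tested.

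In marker-negative barcodes 9 of the 10 members passed the low-count filter (Pmaip1 did not) and none was called with edgeR, either for CPI against isotype (16.6% of all genes called) or for CPI + ABT-317 against CPI (9.93%). At an unadjusted p under 0.05 there were 2 members (Bak1 and Bid) and 1 member (Bak1) of 9, beside 27.4% and 20.9% of all genes, and DESeq2 called no member, beside 15.4% and 9.8%. Mcl1 was at 124.5 and 122 CPM under CPI, 100.7 and 101.1 CPM under isotype and 113.3 and 114.6 CPM under CPI + ABT-317, and the CPI sums held 57 and 29 barcodes. T-like barcodes with the CPI hashtag numbered 297 and 303, against 15 and 15 for isotype and 0 and 7 for CPI + ABT-317, so no sum of 20 barcodes was left to test against. With sums of at least 10 barcodes, a minimum chosen after seeing the data, 6 members could be tested in T-like barcodes under CPI against isotype and none was called, beside 1.09% of 3668 genes (Bcl2a1b 2.29 ± 0.74, unadjusted p = 0.00193 and adjusted p = 0.109; no other member had an unadjusted p under 0.05). With the leading hashtag, 7 members could be tested in fibroblast-like barcodes for CPI + ABT-317 against CPI, and none was called or had an unadjusted p under 0.05, beside 17% of 7879 genes called. The treatment difference itself was tested between macrophage-like and marker-negative barcodes, where 10.5% (CPI against isotype) and 4.89% (CPI + ABT-317 against CPI) of all genes were called, and Bcl2l1 and Bax passed the threshold in the first and Bax in the second with TMM scaling but none of these did with relative log expression size factors. Under CPI these T-like barcodes had 226 and 317.1 CPM of Mcl1, 266.9 and 237.2 CPM of Bcl2a1b and 72.1 and 54.9 CPM of Bcl2.

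The wider mitochondrial pathway was read from a list of 29 genes, of which 25 passed the low-count filter in the tumor class comparisons. In fibroblast-like against macrophage-like barcodes 8 were higher and 11 lower (76.0%, beside 66% of all genes), Bcl2a1d (−5.58) and Bcl2a1a (−5.36) among the latter, like their copy Bcl2a1b. In CD8 T-like against macrophage-like barcodes 2 were higher and 5 lower (28.0%, beside 31.6% of all genes), Bcl2a1a (−2.90) and Bcl2a1d (−1.81) among the latter. Marker-negative against fibroblast-like barcodes gave 8 higher, including the mitotic inhibitor-of-apoptosis gene Birc5 (2.53), and 10 lower (72.0%, beside 69.7%). In the monocyte-like comparison Cflar, an inhibitor of caspase-8 activation, was higher (0.95, adjusted p = 0.00559) and 2 genes were lower, among them Birc5 (−1.94), 3 genes in all (12.0%, beside 1.87%). Neutrophil-like barcodes had more of the death receptor gene Fas (2.89, adjusted p = 0.0278) and less Vdac2 (−1.54, adjusted p = 0.023), 8.0% of the list beside 5.27%. Mature DC-like barcodes had more Apaf1, the apoptosome scaffold (2.23, adjusted p = 0.0341), as the one list gene called (4.0%, beside 0.792%), and Treg-like against CD8 T-like barcodes gave none with edgeR (3 at an unadjusted p under 0.05, beside 9.61% of all genes, and 1, Birc2, with DESeq2, beside 1.36%). In the TDLN, where 21 passed, Treg-like barcodes gave none with edgeR (7 at an unadjusted p under 0.05, beside 10.9% of all genes) or DESeq2 (4.98% of the genes it gave an adjusted p, which some list genes, Bcl2a1d and Xiap among them, lacked), while B-like barcodes had more Birc3 (1.44, adjusted p = 1.87e-09) and Xiap (1.09) and less Endog (−1.80) and Trp53 (−0.91), 4 genes (19.0%, beside 22.3%). Cytotoxic lymphocyte-like barcodes had more Bcl2a1d (3.16, adjusted p = 0.00205) than CD8 naive-like barcodes, again the one list gene called (4.76%, beside 2.04%). In macrophage-like barcodes under CPI 1 list gene was higher (Cflar, 0.54) and 3 were lower, including Birc5 (−2.40) and Vdac1 (−0.75), or 19.0% beside 19.2% of all genes, with the cycling markers at the levels given above. CPI + ABT-317 against CPI gave 4 higher, including Birc5 (2.24), Vdac1 (0.74) and Cycs, the cytochrome c gene (0.57), or 19.0% beside 14.5%. In marker-negative barcodes 7 of 26 were lower under CPI and 6 higher with ABT-317 added (26.9% and 23.1%, beside 16.6% and 9.93%), Casp8 in both counts (−0.74 and 0.73). The fibroblast markers of these barcodes summed to 1930.2 and 2058.3 CPM under isotype, 959.3 and 835.4 CPM under CPI and 1439.7 and 1338.2 CPM under CPI + ABT-317, and their part was not tested.

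The genes with levels most like each member's across the 10 tumor classes are given as a description, by Pearson's r of log2(CPM + 1) over 6446 genes with a mean of at least 20 CPM, and all points share the same libraries. Mcl1 was followed most closely by Osm (r = 0.994), Nlrp3 (0.982) and Cd14 (0.978), Bcl2a1b by Phf11b (0.992), Nckap1l (0.99) and Ncf4 (0.989), and Bcl2l11 by Cflar (0.986), Parp14 (0.975) and Smox (0.973). Pmaip1 was followed by Cytip (0.985), Rel (0.976) and Runx3 (0.971), Bcl2 by Atp8b4 (0.965) and Tox4 (0.937), and Bcl2l1 by Coro7 (0.95), Itgav (0.949) and Wapl (0.936). For the other members the r of the closest gene was lower, with Ap2s1 for Bax (0.904), Ywhah for Bak1 (0.871), Dnajc24 for Bid (0.897) and Snapc1 for Bbc3 (0.904).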

How the data were processed

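The authors deposited raw UMI counts per gene and barcode for each reaction. Per the file headers, Cell Ranger 7.1.0 (TDLN) and 8.0.1 (tumor) wrote the matrices, while the submitters' processing notes name Cell Ranger 3.1.0 and GRCm38. Counts were kept for barcodes with at least 200 genes and under 10% mitochondrial UMIs. No upper gene limit was applied, because the limit of 2500 genes in the study's methods would leave 6.16% and 3.13% of marker-negative barcodes. It was run as an alternative. Doublets were not called. Tumor barcodes that met several class gates (18 and 19) or none (16269 and 8206) were left out of classes. A barcode in a class could still hold markers of other lineages. The stricter classes allowed no UMI of the defining markers of other lineages. They kept 76.2% and 87.6% of CD8 T-like barcodes and 48.6% of cDC2-like barcodes in each reaction. Classes were set by marker gates, after the lineage fit in the TDLN, with thresholds chosen after seeing the marker genes but no member. Hashtag treatments were called by a mixture fit on the antibody counts. The isotype hashtag was called present on 26608 of 37774 and 16731 of 27582 barcodes. Low and high means of the CPI hashtag, as ln(count + 1), were 2.931 and 4.02 in reaction 1 and 2.407 and 3.636 in reaction 2. Those of CPI + ABT-317 were 4.284 and 6.139, and 3.945 and 5.355. The CPI means lay closest together in each reaction, and the error of the calls was not tested. Barcodes with several hashtags (29.97% and 23.81% of macrophage-like barcodes) were left out of treatment comparisons.

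UMIs were summed per class and reaction (at least 20 barcodes) and tested with edgeR 4.0.16 in R 4.3.3 (TMM, filterByExpr, quasi-likelihood test, two-sided) with the reaction as a block. The same number marks the same 10x reaction in every class, so sums are paired by design. P-values were adjusted by Benjamini-Hochberg over all genes tested, with a threshold of 0.05. DESeq2 1.42.0 was an alternative. On simulated counts for 11117 genes, 98.5% (CD8 T-like against macrophage-like) and 100% (fibroblast-like against macrophage-like) of 200 genes changed 4-fold were recovered, with 4 and 5 false calls. The simulation gave all classes 1 mean profile and 1 common dispersion, had no reaction effect, and changed only genes with a mean of at least 20 CPM. Its rates therefore do not describe smaller changes, genes at lower levels or classes that differ in most genes. Figures used Python 3.11.15 with matplotlib 3.10.9. The members and lists were chosen with earlier results of these data known. Gene positions are from GENCODE vM21.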

Additional observations from a re-analysis of the deposited data

Results flagged for a closer look

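The CPI against isotype difference itself differed between macrophage-like and marker-negative barcodes for Bcl2l1, by −1.89 ± 0.56 on the log2 scale (macrophage-like minus marker-negative, edgeR interaction, adjusted p = 0.0162). For Bax the same contrast gave −0.55 (adjusted p = 0.0326), and the contrast of CPI + ABT-317 against CPI gave 0.66 (adjusted p = 0.0219). Of all 13398 genes tested, 10.5% and 4.89% were called. The scaling carried part of these values: the median over all genes was −0.55 and 0.37 with TMM, and −0.23 and 0.16 with relative log expression (RLE) size factors. Under RLE the values were −1.57 for Bcl2l1 (adjusted p = 0.0785) and −0.23 (adjusted p = 0.597) and 0.43 (adjusted p = 0.274) for Bax, so none of the 3 was called, and Bax lay at the median of all genes under both scalings for CPI against isotype. Bcl2l1 rests on 9 UMIs in macrophage-like barcodes under CPI.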

How the results depend on the processing

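Where the main test or the alternative called a member, the direction turned in these results: Bcl2l1 in CD8 T-like against macrophage-like barcodes turned to 1.25 within the CPI hashtag, and Bax in marker-negative against fibroblast-like barcodes, not called in the main test, turned to −0.71 below 2500 genes. Turns between values that were both uncalled are not listed. Counts of all genes called moved by over 1.5 times as follows, from 3518 (CD8 T-like), 586 (neutrophil-like), 208 (monocyte-like) and 7340 (fibroblast-like against macrophage-like), 7748 (marker-negative against fibroblast-like), 69 (Treg-like against CD8 T-like) and 88 (mature DC-like) in tumors. Within the CPI hashtag, chosen after seeing the data, CD8 T-like gave 1529, fibroblast-like 2520 and marker-negative 3670. DESeq2 gave 967 for neutrophil-like, 354 for monocyte-like, 141 for Treg-like and 176 for mature DC-like. Without a filter on low counts the counts were 362 for monocyte-like, 133 for Treg-like and 161 for mature DC-like. Stricter classes gave 122 for monocyte-like and 17 for Treg-like. Below 2500 genes, marker-negative gave 4958 and Treg-like 174, and sums of at least 10 barcodes, also added later, gave 186 for mature DC-like. In the TDLN, DESeq2 gave 60 (Treg-like, from 134), 30 (cytotoxic lymphocyte-like, from 182) and 1136 (B-like, from 1990). The cause was not tested.

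Without the replicate block, the count was 42 for Treg-like against CD8 T-like in the tumor, 26 for Treg-like and 54 for cytotoxic lymphocyte-like in the TDLN, and 731 and 162 for CPI against isotype and CPI + ABT-317 against CPI in marker-negative barcodes (from 2459 and 1470). Without TDLN replicate 3 the counts stayed 134 to 1990, as it gave no sum. With 1 tumor reaction left no test is possible, so leaving one out gave only a log2 ratio of CPM without TMM scaling. A keratin-positive class was not tested, for want of barcodes, nor were treatments in T-like and fibroblast-like barcodes except under 2 alternatives given in the report. Of 107 class levels, 8 moved by over 1.5 times below 2500 genes. Small classes leave Bid, Bbc3 and Pmaip1 with few UMIs.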

Other observations

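Some values belong to no comparison above. NK-like barcodes numbered 5 and 14 in the tumor reactions, too few for a sum, and in reaction 2 Bcl2 held 22 of their 28 antiapoptotic UMIs (78.6%, exact binomial 95% interval 59.0 to 91.7), at 463 CPM. In the mixed TDLN barcodes, Bcl2 was at 247.5, 290 and 202.1 CPM and Mcl1 at 385.5, 276.1 and 307.3 CPM in reactions 1 to 3. As sums, these barcodes held 2045.8, 2377.7 and 2542.3 CPM of T cell markers. B cell markers summed to 3494.1, 2738.5 and 3111.4 CPM, and no cell types were separated within the mixed barcodes.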
